A study of Mus musculus with 2 samples.

Results

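The genes followed here through both libraries of the series are products of the secretory ducts of the mouse submandibular gland. They are 6 kallikreins of 1 gene family (*Klk1*, *Klk1b5*, *Klk1b9*, *Klk1b11*, *Klk1b22* and *Klk1b26*) and the growth factor gene *Egf*, 7 of the 50768 genes in the count tables. The members were chosen by their UMI counts in earlier reading of these same data, which had shown them in free RNA, in barcodes with keratin and as stray counts in other cells, so their levels are a description, with no test. The study asked how glands of NOD/ShiltJ mice, which develop a Sjögren's-like disease and diabetes, differ from those of outbred CD1 controls, and each strain gave 1 library of untreated females aged 20 weeks. Submandibular and adjacent sublingual glands were pooled, from 4 mice of each strain by the study's methods and from 3 by the labels. Cells of both libraries carrying EpCAM (epithelium) or Ter119 (red cells) were depleted with antibody-coated beads, so epithelial cells were the cells selected against. Both libraries were entered here as batch 1. With 1 library per strain no strain difference was tested. The brackets below are 95% exact Poisson or binomial intervals that cover counting error only.

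Tissue kallikreins are secreted serine proteases. In rodents the submandibular gland makes many of them in the granular and striated ducts, from a cluster of recently duplicated genes, and the granular ducts also store epidermal growth factor. These products are under androgen control and are stronger in males than in females. *Klk1* encodes the true tissue kallikrein, which frees kinins from kininogen, while proteins of the *Klk1b* genes include EGF-binding and prorenin-cleaving enzymes.

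Promoter letters show how close the family is. RefSeq (GRCm38.p6, not the GRCm39 build named in the submitters' notes) held a promoter for all 7 genes, and the lines below give the 100 bases before the annotated start of 4 of them, on the gene's own strand. *Klk1* is shown because its levels were only weakly correlated with those of the *Klk1b* genes in the kallikrein-rich barcodes chosen below. *Klk1b22* and *Klk1b26* are shown for the *Klk1b* genes, and *Egf* (the first of its 2 starts) as the growth factor stored beside them. Capitals mark TTTAAA, which reads the same on both strands.
Klk1, chr7:44225260-44225359, plus strand: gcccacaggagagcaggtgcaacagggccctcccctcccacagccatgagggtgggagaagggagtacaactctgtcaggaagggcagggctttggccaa
Klk1b22, chr7:44112573-44112672, plus strand: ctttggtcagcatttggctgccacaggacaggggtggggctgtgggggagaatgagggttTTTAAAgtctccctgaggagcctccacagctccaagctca
Klk1b26, chr7:44012578-44012677, plus strand: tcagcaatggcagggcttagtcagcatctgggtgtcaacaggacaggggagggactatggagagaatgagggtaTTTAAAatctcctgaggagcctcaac
Egf, chr3:129755323-129755422, minus strand: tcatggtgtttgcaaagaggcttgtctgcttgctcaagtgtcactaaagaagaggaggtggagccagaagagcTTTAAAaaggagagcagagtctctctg
All 5 *Klk1b* promoters and the first *Egf* promoter held TTTAAA within these 100 bases, as did 4.39% of 32851 promoters of the same length. The *Klk1* window did not, which says only that these letters are not in it. Over the 250 bases before the start, *Klk1b11* and *Klk1b26* were the most alike (91.1% of aligned bases identical), and pairs with *Klk1* ran from 76.9% to 85.4%. The longest annotated transcripts were 84.0% to 94.2% identical between the 6 kallikreins, with *Klk1* and *Klk1b5* the closest pair, so counts of single family members are uncertain to the degree that reads were split between them.

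Members were counted as unique molecular identifiers (UMIs), 1 for each captured RNA molecule, and given as CPM, the UMIs of a gene per 1000000 of all UMIs in a set of barcodes. UMI numbers were not divided by transcript length, so shares between genes compare numbers of UMIs. The libraries held 52790319 UMIs for NOD and 56483149 for CD1, of which the 7 genes took 8312 and 30652. Counts were read in 4 sets of barcodes. Empty droplets were barcodes of 10 to 100 UMIs (64931 in NOD, median 79 UMIs, and 70666 in CD1, median 47), which mainly hold RNA set free during dissociation. Keratin barcodes had at least 500 UMIs and at least 2 UMIs of *Krt8* and *Krt18*, the simple epithelial keratins (24 in NOD and 147 in CD1). Immune cells (3344 and 2196) and endothelial cells (826 and 2197) were clusters named from marker genes. The libraries shared 423377 barcode sequences in all, 24 of those with at least 500 UMIs, and 0 keratin barcodes.

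The label of duct cells held for only a fraction of the keratin barcodes. In NOD, 5 of the 24 held 2 or more UMIs of the basal and myoepithelial keratins *Krt5* and *Krt14*, 7 more held *Ptprc*, *Pecam1*, *Cdh5* or *Kdr* UMIs of immune or endothelial cells, and 12 held neither. In CD1 the numbers were 23, 53 and 71 of 147. Kallikreins were highest in the last kind, at 54932 CPM in NOD and 23281 CPM in CD1, against 16.1 and 73.5 CPM in the *Krt5* or *Krt14* barcodes and 3408 and 3001 CPM in those with immune or endothelial genes. Clustering set apart 30 NOD and 116 CD1 barcodes that were led by *Fxyd2*, *Klk1*, *Crisp3* and *Klk1b26*. In that cluster 4 epithelial markers were raised, but its median UMIs were low (946 and 1157.5) and no marker stood among its 10 leading genes, so it is called here only the kallikrein-led cluster. Of the kallikrein UMIs in keratin barcodes, 1327 of 1343 in NOD and 6026 of 7808 in CD1 lay in it. The median mitochondrial share of keratin barcodes was 0.87% in NOD and 5.13% in CD1, and that of the kallikrein-led cluster 0.25% and 0.40%.

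Free RNA held far fewer kallikrein molecules in NOD than in CD1. The 6 kallikreins together stood at 173 CPM in the empty droplets of NOD (846 UMIs) and at 1853 CPM in those of CD1 (6245 UMIs), a log2 NOD/CD1 of -3.42 (-3.53 to -3.32). All 7 genes were at least 2-fold lower in NOD, where 17.4% of the 13264 genes with 20 or more UMIs were, and the members' median log2 was -3.45 beside -0.04 for all those genes. *Klk1* stood at 80.4 CPM in NOD and 986 CPM in CD1. *Klk1b26* stood at 43.7 and 304 CPM, with the least negative log2 of the kallikreins, -2.80 (-3.02 to -2.58). *Klk1b22*, known as an EGF-binding protein, had the most negative, -4.16 (-4.74 to -3.63). *Egf* was at 4.08 CPM in NOD (20 UMIs) and 23.1 CPM in CD1 (78 UMIs), with a log2 of -2.50 (-3.29 to -1.78). A pooled readout of this kind cannot tell fewer duct cells from less RNA per cell or from less RNA set free. Marker genes of many cell types moved in the same droplets. Of genes with 20 or more UMIs, 8 of 8 acinar secretory genes (148 against 3706 CPM summed), 7 of 7 endothelial (872 against 3478 CPM), 7 of 8 macrophage (980.2 against 3840 CPM), 5 of 5 myoepithelial and 4 of 4 neutrophil genes were at least 2-fold lower in NOD. By contrast 7 of 7 T cell genes (1662 against 120.5 CPM), 6 of 6 B cell genes and 3 of 5 plasma cell genes (9142 against 4122 CPM) were at least 2-fold higher. So were 6 of 6 fibroblast genes (578 against 189 CPM). Duct genes were mixed, with 4 of 8 at least 2-fold lower in NOD and 1 higher. Of epithelial marker genes 3 of 5 were at least 2-fold lower and 0 higher. The part of all these lists in the kallikrein difference was not tested.

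**Figure D1:**
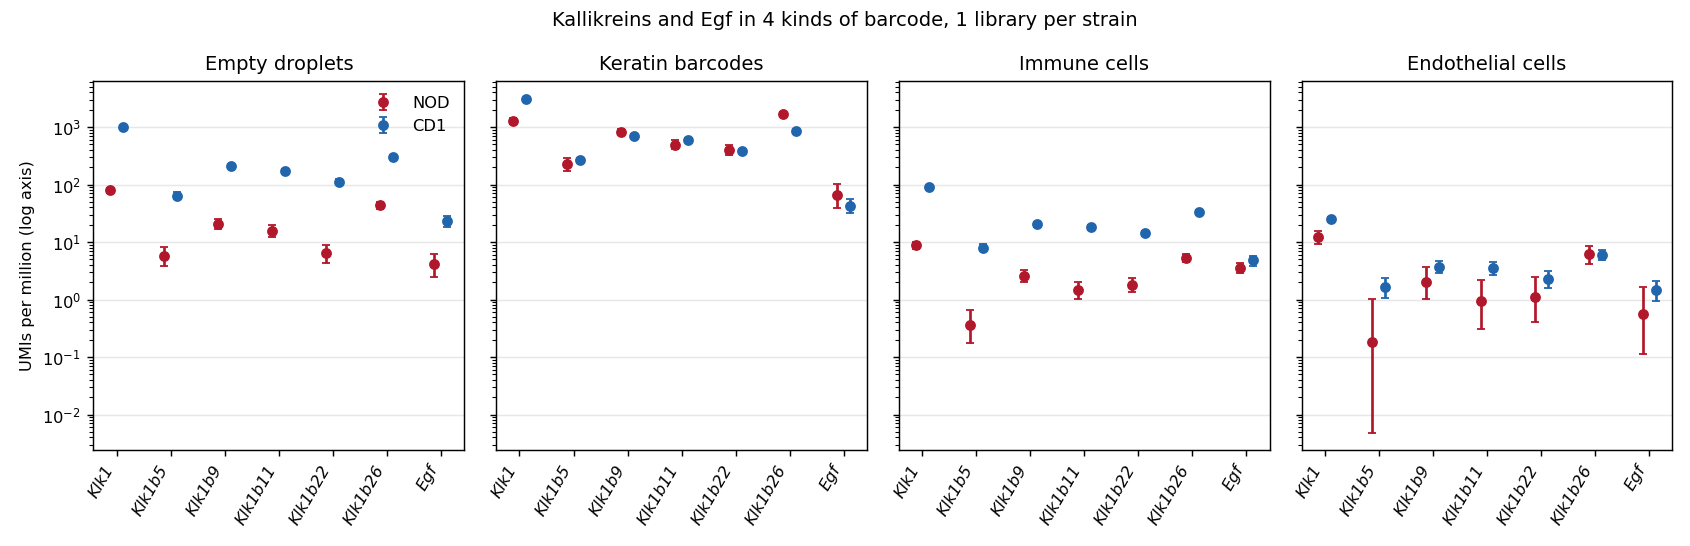
Level of each of the 7 genes (CPM, log axis) in 4 kinds of barcode, for the NOD (red) and CD1 (blue) library. Points are pooled sums and bars are exact Poisson intervals of 95%. The strains are far apart in empty droplets and immune cells, and close for most genes in keratin barcodes.

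Keratin barcodes showed no such gap. The 6 kallikreins stood at 4913 CPM in NOD (1343 UMIs) and at 5941 CPM in CD1 (7808 UMIs), a log2 of -0.27 (-0.36 to -0.19). The base of this level is all UMIs of these barcodes. *Krt5* or *Krt14* barcodes held 185939 of 273350 in NOD and 380970 of 1314338 in CD1, beside 3 and 28 kallikrein UMIs. By kind of barcode the sum was lower in NOD in these (16.1 against 73.5 CPM). It was higher in the others (3408 against 3001 and 54932 against 23281 CPM). The keratin CPM below are pooled over all kinds. Of the 7 genes 1, *Klk1*, was at least 2-fold lower in NOD, where 15.7% of the 9281 genes measured were, and none was at least 2-fold higher, where 10.4% were. *Klk1* stood at 1273 CPM in NOD and 3133 CPM in CD1, a log2 of -1.30 (-1.46 to -1.14), whereas *Klk1b26* stood at 1690 and 859 CPM, a log2 of 0.98 (0.82 to 1.13). The opposite signs depended on the barcodes taken. Without the 5 richest of each library *Klk1b26* stood at -0.47 and *Klk1* at -1.69. That cut was unequal: it took 77.9% of the *Klk1b26* UMIs in NOD and 39.5% in CD1, which by itself lowers the ratio. Over all alternatives *Klk1b26* ran from -3.30 to 3.15 and *Klk1* from -2.39 to -0.44. For *Klk1b5* (227 and 262 CPM), *Klk1b22* (402 and 382 CPM) and *Egf* (65.8 and 42.6 CPM, from 18 and 56 UMIs) the interval of the log2 held 0. *Klk1b9* (827 and 705 CPM) and *Klk1b11* (494 and 600 CPM) differed by 0.23 and -0.28. Scaling by the median of ratios over genes, which lay at 0.29 in keratin barcodes and at 0.12 in immune cells, took 0.29 from each keratin value, so that *Klk1b9* and *Klk1b22* changed sign and the sum stood at -0.56. The direction of the sum was set by which barcodes were taken. It was -2.68 where at least 5 keratin UMIs were asked for, 0.25 where 1 was enough, 0.95 without the barcodes with immune or endothelial genes, and 1.55 when each barcode counted equally. Marker genes of other cells also differed in these barcodes. Of those with 20 or more UMIs, 7 of 7 macrophage genes (267 against 5054 CPM summed), 5 of 5 acinar secretory genes (91.5 against 2019 CPM) and 4 of 7 endothelial genes were at least 2-fold lower in NOD, while 5 of 5 T cell genes (505 against 29.7 CPM) and 3 of 5 plasma cell genes (35303 against 6903 CPM) were at least 2-fold higher. Their part in the result was not tested. In the kallikrein-led cluster the sum stood at 58262 CPM in NOD and 35009 CPM in CD1, a log2 of 0.73 (0.67 to 0.80). There *Klk1b26* was at 2.16 and *Klk1* at -0.45 (-0.58 to -0.33). *Egf* was at 2.15 (1.47 to 2.81) from 37 and 43 UMIs, 34 of the 43 in 1 CD1 barcode.

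Few barcodes carried these sums. In NOD, 10 of the 24 keratin barcodes held 97.7% of the kallikrein UMIs, 5 held 64.6%, and 9 held none. Kallikreins made up between 0 and 21.7% of the UMIs of a NOD keratin barcode (median 0.38%) and between 0 and 23.3% in CD1 (median 0.16%). In CD1, 13 barcodes were needed to reach 50% of the kallikrein UMIs, and 34 of 147 held none. *Egf* was narrower still: 1 CD1 barcode held 34 of the 56 UMIs, and without the richest barcode of each library its log2 rose from 0.63 to 1.72. Without the 5 richest barcodes of each library, an alternative added after the data were seen, the kallikrein sum went from -0.27 to -1.26. This cut took 64.6% of the kallikrein UMIs in NOD and 29.5% in CD1, so part of the fall was built in.

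The make-up of the kallikrein UMIs differed between strains in keratin barcodes and in free RNA. *Klk1* gave 25.9% of the 6 genes' UMIs in NOD keratin barcodes (23.6 to 28.3) and 52.7% in those of CD1 (51.6 to 53.9). *Klk1b26* gave 34.4% and 14.5%, and *Klk1b9*, an EGF-binding protein, 16.8% and 11.9%. The shares of *Klk1b5* (4.62% and 4.42%) and *Klk1b11* (10.1% and 10.1%) had overlapping intervals. The distance between make-ups is the number of percentage points that would have to pass between genes to turn one into the other, and it was 26.9 points between the strains in keratin barcodes and 9.44 points in empty droplets. In CD1 the free RNA had nearly the make-up of the keratin barcodes (2.41 points apart), with *Klk1* at 53.2%. In NOD it did not (20.7 points): *Klk1* made up 46.6% in empty droplets and 25.9% in keratin barcodes. The NOD keratin make-up leaned on few barcodes: its 5 richest held 77.9% of the *Klk1b26* UMIs but 40.8% of the *Klk1* UMIs. In CD1 the 5 richest held 39.5% and 22.1%. The distance from free RNA was not computed without them. The strain distance in keratin barcodes fell to 15.9 points for barcodes of at least 1000 UMIs and to 13.7 points where 5 keratin UMIs were required, and was 15.4 points without the 5 richest barcodes of each library. In droplets of over 100 and up to 300 UMIs it was 22.8 points, so which of the 2 distances was wider depended on the barcodes taken.

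**Figure D2:**
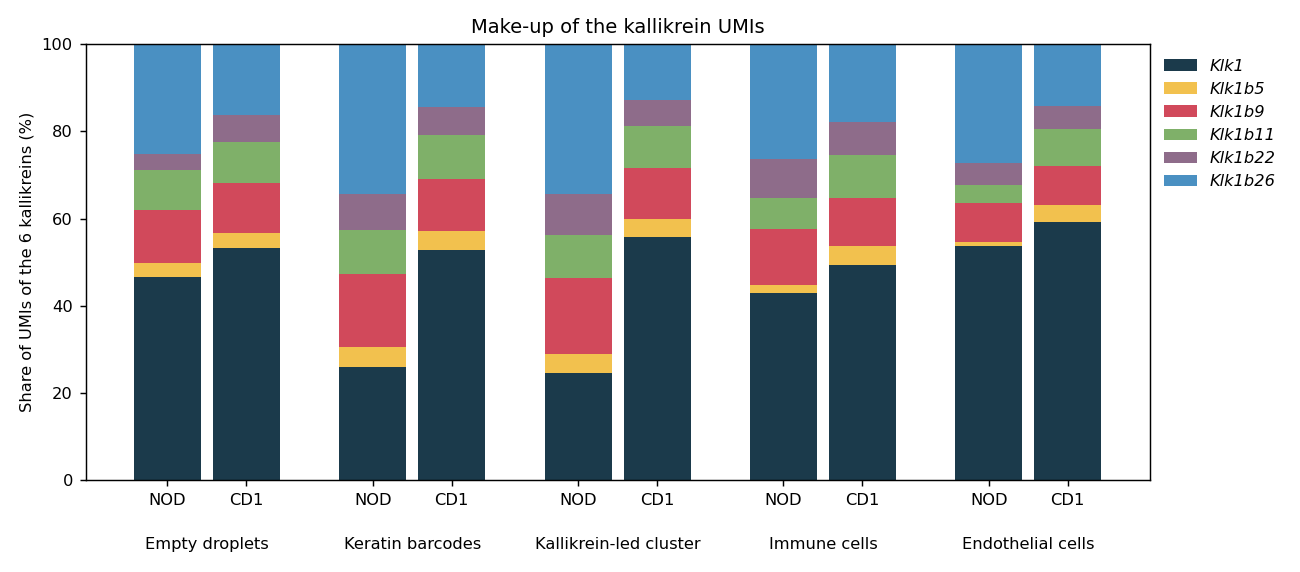
Share of each of the 6 kallikreins in their summed UMIs (%), stacked, by strain and kind of barcode. The *Klk1* share is 25.9% in NOD keratin barcodes and between 46.6% and 53.2% in CD1 keratin barcodes and the empty droplets of both strains.

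Single barcodes ranged between 2 extremes of make-up. Among barcodes of at least 500 UMIs, 41 in NOD and 161 in CD1 held 20 or more kallikrein UMIs, whether or not they held keratin. Within the keratin barcodes of this kind, the *Klk1* share ran from 0 to 73.9% in NOD (median 20.3%, 9 barcodes) and from 0.92% to 100% in CD1 (median 66.5%, 61 barcodes). The barcode with the most kallikrein UMIs in CD1 held 6 *Klk1*, 260 *Klk1b26*, 136 *Klk1b9* and 34 *Egf* UMIs. The third richest held 468 *Klk1*, 7 *Klk1b26*, 0 *Klk1b9* and 0 *Egf* UMIs. Both had similar kallikrein loads (19.1% and 23.3% of their UMIs) and opposite make-ups.

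*Egf* was set against the 5 *Klk1b* genes in barcodes of low and high *Klk1* share, since a sum that holds *Klk1* falls with that share by construction. This measure, and the values without 1 barcode, were added after the data were seen. In NOD keratin barcodes with *Klk1* under 20% of the kallikreins, *Egf* UMIs were seen in 4 of 4 and came to 23.5 per 1000 *Klk1b* UMIs, while the 3 with *Klk1* at 50% or more held 0 *Egf* UMIs beside 128 *Klk1b* UMIs. In CD1 the same kinds gave 25.6 per 1000 over 5 barcodes and 4.303 per 1000 over 42 barcodes, but 34 of the 38 *Egf* UMIs of the first kind lay in 1 barcode. Without the richest barcode of each kind the CD1 values were 4.76 and 4.34 per 1000, so the CD1 keratin difference rested on that barcode. Barcodes of at least 500 UMIs that did not meet the keratin minimum gave 18.6 against 7.63 per 1000 in NOD (14 and 12 barcodes, 22 and 1 *Egf* UMIs) and 20.0 against 6.84 per 1000 in CD1 (17 and 62 barcodes, 15 and 4 *Egf* UMIs).

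Across the 41 NOD barcodes the log levels of *Klk1b26* and *Egf* had a Pearson r of 0.75 and those of *Klk1* and *Egf* -0.07. Across the 161 CD1 barcodes these were 0.32 and -0.23. Spearman's rho for *Klk1b26* and *Egf* was 0.74 in NOD and 0.16 in CD1, so the relation was weak in CD1. The 5 *Klk1b* genes correlated with each other at 0.73 to 0.90 in NOD and 0.40 to 0.75 in CD1, and with *Klk1* at 0.10 to 0.19 and 0.17 to 0.28. These barcodes were chosen by the summed UMIs of the same kallikreins. A barcode low in *Klk1* therefore entered only with many *Klk1b* UMIs, and the reverse. Such a choice can lower the r between *Klk1* and the *Klk1b* genes. How far *Klk1* varied apart from them thus cannot be read from these values. Barcodes of a library also share its free RNA and differ in depth, and these r are descriptions.

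**Figure D3:**
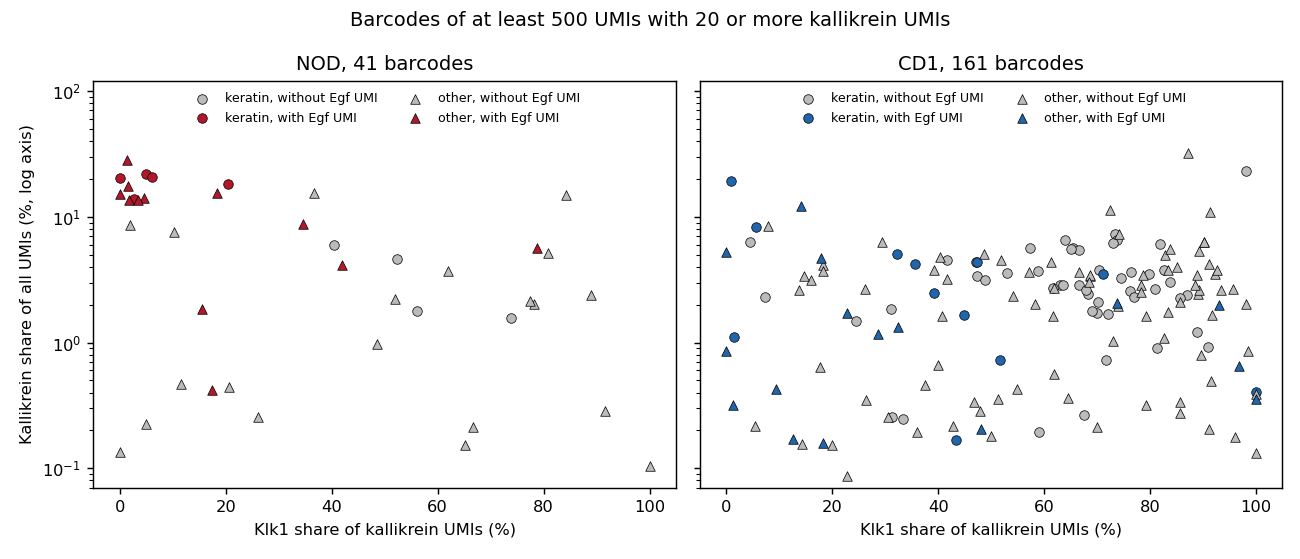
Each point is a barcode of at least 500 UMIs with 20 or more kallikrein UMIs, 41 in NOD (left) and 161 in CD1 (right). The x axis is the *Klk1* share of its kallikrein UMIs (%) and the y axis the kallikrein share of all its UMIs (%, log axis). Circles are keratin barcodes, triangles others, and color marks an *Egf* UMI, seen in 4 of 4 NOD and 3 of 5 CD1 keratin barcodes with *Klk1* under 20%.

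Other genes of the pathway were read in keratin barcodes from lists. All 8 further protein-coding *Klk1* family genes had 20 or more UMIs, with a median log2 of 0.26, 1 at least 2-fold higher in NOD (*Klk1b8*) and 0 at least 2-fold lower. In empty droplets all 8 were at least 2-fold lower in NOD. The 4 with the most UMIs were *Klk1b3* (157 CPM in NOD and 205 CPM in CD1), *Klk1b16* (212 and 165 CPM), *Klk1b21* (198 and 147 CPM) and *Klk1b4* (157 and 122 CPM). The 6 members made up 83.4% of all *Klk1* family UMIs in NOD and 87.5% in CD1, and the 10 pseudogenes of the family gave 0 and 9 UMIs. Of 12 other kallikreins (*Klk4* to *Klk15*), *Klk8* alone had any UMI, 4 in each library.

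The EGF receptor gene *Egfr* stood at 413 CPM in NOD and 159 CPM in CD1 (log2 1.38, from 1.03 to 1.71). These levels were pooled over all kinds of keratin barcode, which the strains held in different proportions, and *Egfr* was not read by kind. Of 8 other EGF ligands, *Nrg1* alone reached 20 UMIs, at 21.9 and 55.5 CPM. In the kinin list, *Bdkrb2* and *Ace* together had 0 UMIs in NOD and 20 in CD1, and the kininogen genes *Kng1* and *Kng2* had 0. Duct genes gave no single direction: of 7 measured, *Ren1* (renin, 362 and 10.7 CPM) was at least 2-fold higher in NOD and *Slc12a2* (the sodium, potassium and chloride cotransporter, 58.5 and 177 CPM) at least 2-fold lower.

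The genes whose level over 14 pools (empty droplets, keratin barcodes, endothelial cells and the immune classes of at least 50 cells, by library) most resembled that of the kallikrein sum were *Crisp3*, *Fxyd2*, *Nupr1*, *Klk1b16* and *Klk1b3*, with a Pearson r of 0.95 to 0.99. For *Egf* they were *Klk1b21*, *Tfcp2l1*, *Klk1b4*, *Krt18* and *Krt7*, with r of 0.98 in each. These are the top 5 of 1268 genes, and the pools share libraries. Likeness was read on log levels with 20 CPM added. *Egf* passed 20 CPM only in the keratin barcodes (65.8 and 42.6 CPM) and the CD1 empty droplets (23.1 CPM). It was at most 5.68 CPM in the other pools, so its r was set mainly by those few pools. *Krt18* UMIs also served to define the keratin barcodes and to limit the immune and endothelial cells. Its place in the list was thus partly fixed in advance.

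Stray kallikrein UMIs in immune cells followed the strain of the library. Immune cells held 20.3 CPM of the 6 kallikreins in NOD (559 UMIs) and 185 CPM in CD1 (3950 UMIs), a log2 of -3.19 (-3.32 to -3.06). Of the 7 genes 6 were at least 2-fold lower in NOD, where 15.8% of 16976 genes were. *Egf* was the exception, at 3.60 and 4.78 CPM (log2 -0.41, from -0.82 to 0.0039). The make-up of the immune cells differed too: 1740 were T-like and 336 macrophage-like in NOD, against 86 and 1691 in CD1. Within macrophage-like cells the kallikreins stood at 67.8 CPM in NOD and 234 CPM in CD1, within T-like cells at 9.59 and 22.8 CPM, and within NK-like cells at 3.17 and 20.0 CPM, lower in NOD in each. Endothelial cells held 22.5 CPM in NOD (121 UMIs) and 41.7 CPM in CD1 (720 UMIs), a log2 of -0.89 (-1.18 to -0.61), and 5 of 7 genes were at least 2-fold lower in NOD, where 3.41% of 13830 genes were. Of these 5, *Klk1b5*, *Klk1b11*, *Klk1b22* and *Egf* had only 1, 5, 6 and 3 UMIs in NOD. The intervals of *Klk1b22* (-2.55 to 0.23) and *Egf* (-3.75 to 0.34) held 0. *Klk1* (-1.03) and *Klk1b22* (-1.02) lay close to the 2-fold limit. *Klk1b26* was at 6.14 and 5.91 CPM in endothelial cells. The endothelial gap depended on the doublet step: with suspected doublets kept, the log2 was -0.02 and 1 of 7 genes was at least 2-fold lower. The share over all genes was not computed for that setting.

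Set against the free RNA of the same library, the kallikreins of immune cells stood at 11.8% (10.6 to 13.1) of their level in empty droplets in NOD and at 10.0% (9.60 to 10.4) in CD1. With cells placed by their own markers the values were 20.6% and 10.7%. In endothelial cells the values were 13.04% (10.7 to 15.8) and 2.25% (2.08 to 2.43), which differ by more than counting error. The pooled immune values average classes in different proportions. The classes with at least 50 cells in both libraries (macrophage-like, NK-like and T-like) were higher in NOD on this scale. Macrophage-like cells held 39.3% of the free RNA level in NOD and 12.6% in CD1, NK-like cells 1.84% and 1.08%, and T-like cells 5.55% and 1.23%. These rested on 251 and 3787, 22 and 81, and 118 and 17 kallikrein UMIs. The 5 richest cells held 52.6% and 15.6% of them in macrophage-like, 54.5% and 45.7% in NK-like, and 49.2% and 58.8% in T-like cells. The smaller classes did not follow. B-like cells stood at 22.9% in NOD (586 cells) and at nearly the same share in CD1 (7 cells, 19 kallikrein UMIs). Plasma-like cells had a lower share in NOD, with 9.59 CPM from 4 UMIs in 40 cells. In CD1 they had 163 CPM from 46 UMIs in 71 cells.

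Shares of cells with a kallikrein UMI were also lower in NOD. They were 6.70% of immune cells in NOD (median depth 7153.5 UMIs) and 41.1% in CD1 (9070 UMIs), beside 5.81% and 13.6% of endothelial cells (5755.5 and 7057 UMIs). After thinning each cell to 500 UMIs, which left out no cell, the shares were 0.96% and 6.28% in immune cells and 0.24% and 1.87% in endothelial cells. In keratin barcodes they were 54.2% and 53.7%. The kallikrein levels differed between classes of immune and endothelial cells by more than counting error. How the UMIs came into these cells was not tested.

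A small number of cells held many of the stray UMIs. In CD1 immune cells, 77 cells with 10 or more kallikrein UMIs held 1920 of 3950, and 1 cell held 214. In NOD, 9 such cells held 212 of 559. Among cells with at most 2 kallikrein UMIs the level was 7.88 CPM in NOD and 41.1 CPM in CD1, still lower in NOD. *Egf* did not keep the kallikreins' ratio to free RNA. Its level in immune cells was 88.2% (54.2 to 151) of that in empty droplets in NOD and 20.7% (15.2 to 28.1) in CD1. NK-like cells of NOD held 37 *Egf* UMIs in 26 of 642 cells beside 22 kallikrein UMIs, whereas the empty droplets of that library held 20 beside 846. Immune cells took 36.8% of all *Egf* UMIs in NOD and 27.1% in CD1, against 6.95% and 13.05% of the kallikrein UMIs and 52.1% and 37.8% of all UMIs. The sources do not say if reads in introns were counted.

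**Figure D4:**
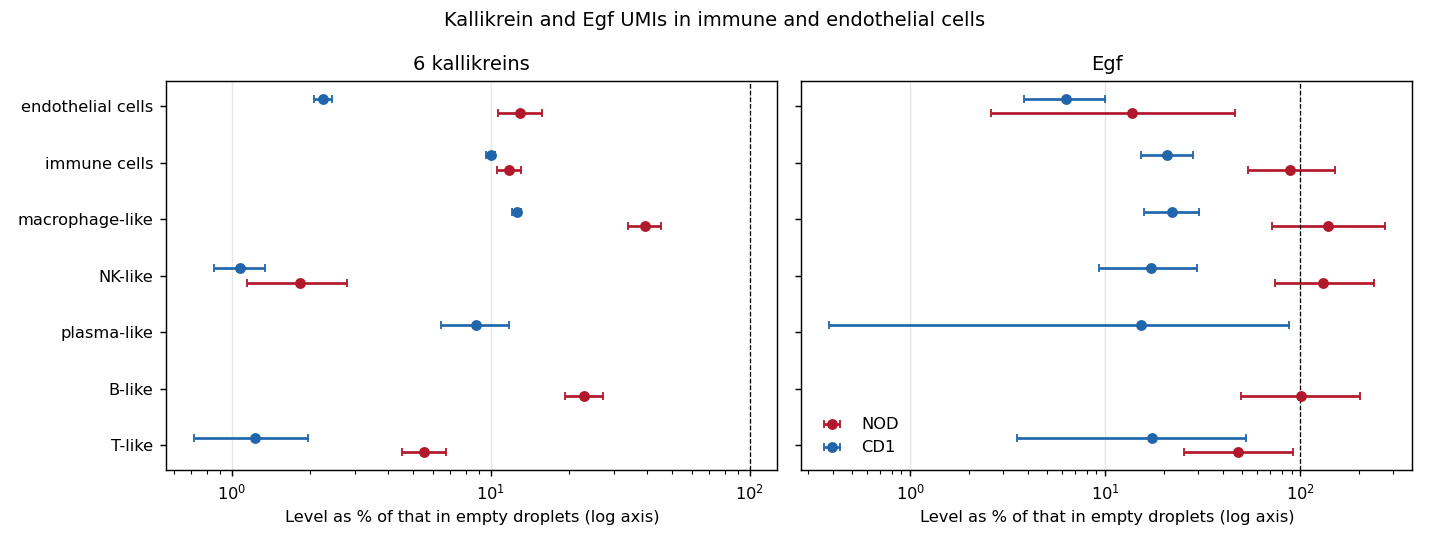
Level of the 6 kallikreins together (left) and of *Egf* (right) in each class of cells, as a percentage of the level in empty droplets of the same library (log axis, dashed line at 100%). Bars are exact intervals of 95%, and classes with under 50 cells or 0 UMIs are not drawn. Kallikreins lie below 40% in each class, while *Egf* in NOD immune classes lies between 47.8% and 139%.

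Barcode size changed the strain gap in free RNA. In NOD the kallikreins rose from 175 CPM in barcodes of 51 to 100 UMIs to 446 CPM above 100 and up to 200 UMIs, and in CD1 from 2036 to 3679 CPM. The *Klk1* share in NOD fell over the same steps from 46.4% to 36.5%, while in CD1 it was 51.8% and 50.9%. A kallikrein-rich barcode was taken as one with at least 3 kallikrein UMIs making up at least 1% of its UMIs. Above 100 and up to 200 UMIs such barcodes, 50 of 12269 in NOD and 170 of 3019 in CD1, held 66.8% and 71.6% of the kallikrein UMIs. At 51 to 100 UMIs they held 14.8% and 25.5%. Without them the level at 51 to 200 UMIs in NOD was 149 CPM in both bins, against 1529 and 1110 CPM in CD1, so NOD stayed below CD1 in the remaining barcodes.

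**Figure D5:**
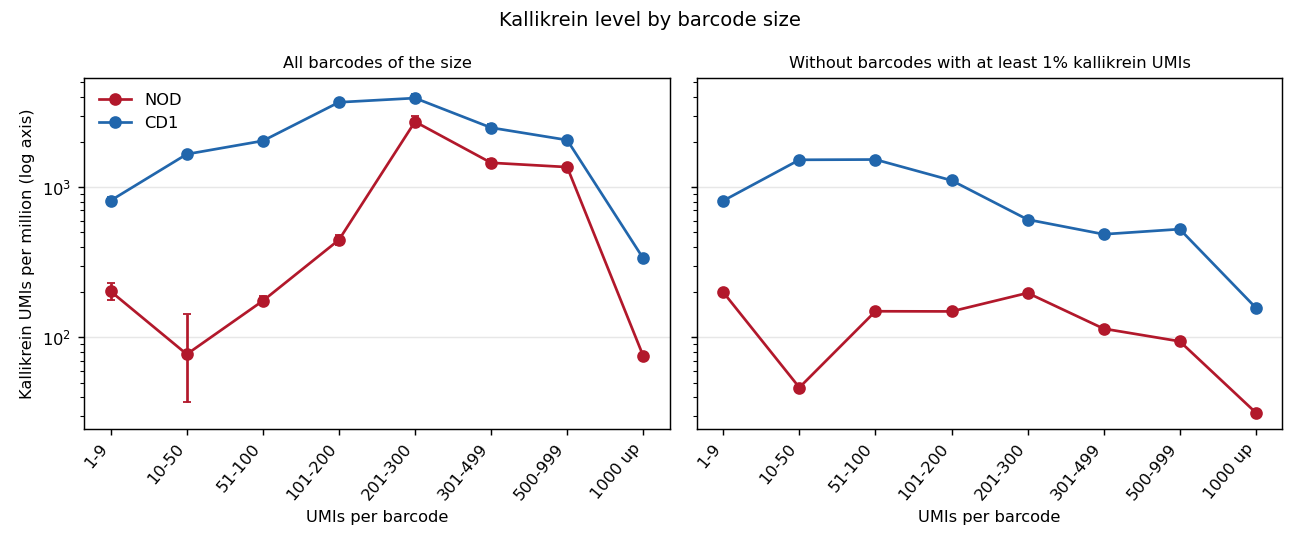
Kallikrein CPM (log axis) by number of UMIs per barcode, for all barcodes (left, with exact Poisson intervals of 95%) and without barcodes whose kallikrein UMIs number at least 3 and make up at least 1% (right). NOD lies below CD1 in each of the 8 size bins in both panels.

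Most member UMIs lay outside the keratin barcodes. Keratin barcodes held 16.4% (15.6 to 17.2) of the 7 genes' UMIs in NOD and 25.7% (25.2 to 26.1) in CD1, in 0.52% and 2.33% of all UMIs. Empty droplets held 10.4% and 20.6%, barcodes of over 100 and under 500 UMIs 26.6% and 13.1%, and barcodes of at least 500 UMIs that were neither keratin barcodes nor immune or endothelial cells 34.5% and 21.5%. Barcodes of the kallikrein-led cluster below the keratin minimum, which lie within the last set, held 13.9% in NOD and 5.18% in CD1.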

How the data were processed

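Single cell libraries (10x Genomics) of 1 pool of glands per strain were analysed. The authors deposited, for each library, unfiltered UMI counts of 50768 genes in all barcodes, made with Cell Ranger 8.0.0 per the file headers. The deposited barcode and gene names (unit other) were used only as names. The submitters' processing notes also name GRCm39, R 4.3.1 and Seurat 5.0.1. The gene annotation and the treatment of intron reads are not given in the sources used here. The libraries held 52790319 (NOD) and 56483149 (CD1) UMIs in 933210 and 1063919 barcodes with a UMI, and 7998 and 8376 barcodes had at least 500 UMIs.

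The members and the gene lists were chosen with earlier results of these data known. Immune and endothelial cells had at least 500 UMIs, 300 genes, at most 10% mitochondrial UMIs and under 2 keratin UMIs. Suspected doublets were the highest Scrublet scores (scanpy 1.11.5), 0.8% per 1000 barcodes, or 193 and 258 barcodes, where Scrublet's own threshold marked 86 and 132. This left 4724 and 5416 cells, which were integrated (Seurat 5.3.0, R 4.3.3, CCA, 2000 features, 30 dimensions), clustered at resolution 0.5 without the member, duct, acinar and epithelial genes, and named from marker lists. Rebuilt names may differ from the study's. CPM, shares and log2 ratios with exact intervals were computed in Python 3.11.15 (scipy 1.17.1), and the code was tested on simulated data. Intervals cover counting error only, and no p-value was computed because each strain had 1 library. A fold was read over genes with at least 20 UMIs in both libraries together. Correlations between barcodes and gene likeness over pools used log levels (20 CPM added for likeness, genes of at least 200 keratin UMIs). Besides the 7 genes, each list was read by its counts, naming up to 4 of its highest genes with at least 20 UMIs. *Klk1b8*, *Klk8*, *Bdkrb2*, *Ace*, *Kng1* and *Kng2*, and the cell type lists given beside results, were named after their values were seen. Promoters (RefSeq) and transcripts (the longest protein-coding GENCODE entry of each gene) were compared with Biopython 1.88, and no coordinates were converted between builds. Some genes of the lists are not reported here.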

Additional observations from a re-analysis of the deposited data

Results flagged for a closer look

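Barcodes of over 200 and under 500 UMIs, which lie between the empty droplets and the cells and belong to none of the 4 sets of barcodes compared, held more kallikrein RNA than the empty droplets of the same library. Above 200 and up to 300 UMIs the 6 kallikreins stood at 2732 CPM in NOD and 3921 CPM in CD1, and above 300 UMIs at 1454 and 2491 CPM, beside 173 and 1853 CPM in empty droplets. In the first of these bins, 18 of 777 NOD barcodes and 112 of 1211 CD1 barcodes held 92.9% and 85.9% of the kallikrein UMIs. Without those barcodes the levels were 198 and 609 CPM. *Klk1* gave 25.0% of the kallikrein UMIs of this bin in NOD and 58.4% in CD1.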

How the results depend on the processing

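No paired analysis was possible because each strain had 1 library. Over the alternatives, the log2 NOD/CD1 of the 7 genes and their sum kept its sign in 37 of 37 values for empty droplets, 64 of 64 for immune cells, 58 of 64 for endothelial cells and 58 of 80 for keratin barcodes. The cause of the changes below was not tested. The share of all genes at least 2-fold lower in NOD was computed for the main settings only. Counts of members lower under an alternative thus have no such share beside them, and are not read as a result about the members. The minimum of 5 keratin UMIs left 8 barcodes in NOD and 37 in CD1.

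In empty droplets the kallikrein sum was -4.43 at 10 to 50 UMIs, -3.54 at 51 to 100 and -2.40 above 100 and up to 300. In the last range *Egf* was -0.91 and the strain distance in make-up 22.8 points. At 10 to 50 UMIs 4 members were counted as at least 2-fold lower in NOD, and *Klk1b5*, *Klk1b22* and *Egf*, with 0 UMIs in NOD against 85, 153 and 30 in CD1, could not be counted. In keratin barcodes, for minimums of 1 and 5 keratin UMIs and of 1000 UMIs in all, the sum was 0.25, -2.68 and -0.86, the members at least 2-fold lower numbered 0, 7 and 2, and the share of member UMIs was 34.7%, 3.86% and 10.6% in NOD and 32.5%, 12.6% and 25.0% in CD1. With the last 2 of these minimums *Egf* was -2.09 and -0.37 and the distance 13.7 and 15.9 points. Without barcodes holding immune or endothelial genes the sum was 0.95, *Egf* 1.94 and the members lower 0. With each barcode counted equally they were 1.55, 3.10 and 0. The sum was -0.36 with at most 10% mitochondrial UMIs and -0.56 with median-of-ratios scaling. Without the richest barcode of each library the sum was -0.43, *Egf* 1.72 and the distance 30.3 points. Without the 5 richest, which were 5 of 24 barcodes in NOD and 5 of 147 in CD1, the sum was -1.26. The members lower were then 3 and the distance 15.4 points. That last alternative, and the values for single genes and for the number of members lower, were added after the data were seen.

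In immune cells the sum was -2.47 with cells placed by their own markers, -2.67 with doublets kept, -2.99 for cells without keratin UMIs and -3.03 with each cell counted equally. With doublets kept, endothelial cells gave a sum of -0.017, 1 member lower and *Klk1b22* at 0.62, reversed from -1.02, and without keratin UMIs 3 members lower. As a share of free RNA, immune cells gave 20.6% (own markers) and 17.0% (doublets kept) in NOD, and in CD1 10.7% (own markers), 8.71% (no keratin UMIs) and 9.10% (droplets of 51 to 100 UMIs). Endothelial cells gave 24.6% in NOD with doublets kept, and in CD1 2.00% (no keratin UMIs) and 2.05% (droplets of 51 to 100 UMIs). Depth limits *Egf*, with 20 UMIs in the NOD empty droplets and 18 in the NOD keratin barcodes, and *Klk1b5*, with 10 in NOD immune cells and 1 in NOD endothelial cells.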
